A study of Homo sapiens with 6 samples.

Results

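Colony-stimulating factors, interleukins and CC chemokines are small secreted proteins that pass signals between cells. The 10 genes described here are CSF1, CSF2, CSF3, IL7, IL15, IL23A, IL24, IL32, CCL3 and CCL5. They were taken by symbol from a table of 59008 gene symbols, of which 18214 reached at least 1 unit of TPM (transcript abundance per length, scaled within a library) in at least 1 of 6 libraries and could be called as changed. All 10 genes reached that level, IL23A and CCL5 only just, with highest levels of 1.08 and 1.02 TPM. The genes share a function as secreted ligands and were chosen from the values measured in these same libraries, so their levels and changes are given as a description and carry no test.

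The libraries came from Hey and SKOV3, established human ovarian cancer cell lines grown in MEM Eagle and RPMI-1640 medium with serum. Parental cells were untreated. Polyploid giant cancer cells (PGCCs), large cells with extra genome copies, were obtained with 500 nM paclitaxel for 16 h, a microtubule-stabilizing drug that arrests dividing cells, followed by 3 days of recovery. The title of the SKOV3 PGCC library names day 7, while its treatment label gives 3 days. Daughter cells had the same exposure and 30 days of recovery, and each daughter library is labelled as clone 1, so it stands for 1 clone. Each condition of each line had 1 library, no value has a replicate error, and the reads behind a TPM value are unknown because TPM keeps no depth. A difference was therefore called only when log2(TPM + 1) differed by at least 1, a 2-fold change, between 2 libraries of a line. In a bulk library, fewer cells of a kind and less RNA per cell cannot be told apart.

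CSF1, CSF2 and CSF3 encode M-CSF, GM-CSF and G-CSF, which drive the growth and maturation of macrophages, of granulocytes and macrophages together, and of neutrophils. IL7 and IL15 keep lymphocytes alive through receptors that share the common gamma chain, and IL23A encodes the p19 subunit of interleukin-23. IL24 belongs to the IL-10 family, IL32 is a proinflammatory cytokine found in humans but not in mice, and CCL3 and CCL5 attract leukocytes through CC receptors. Many of these genes are switched on by NF-κB and AP-1 factors, and several of the messages are short-lived because of AU-rich elements.

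The epithelial keratins KRT8 and KRT18 were present in every library, at 319 to 1052 and 220 to 672 TPM, as was PAX8, a Müllerian lineage factor, at 54.7 to 136 TPM. ERBB2, which is amplified in SKOV3, was at 1127 to 1778 TPM in the SKOV3 libraries and at 8.20 to 14.1 TPM in the Hey libraries. EPCAM was at or below 1.43 TPM in Hey, and at 68.8, 43.6 and 8.15 TPM in SKOV3 parental cells, PGCCs and daughter cells. KRT19, CDH1 and MUC16 did not exceed 3.60, 0.0283 and 0.0322 TPM in Hey. In SKOV3, KRT19 was at 80.2 to 711 TPM, CDH1 at 1.47 to 8.35 TPM and MUC16 at 0.0056 to 1.59 TPM. WT1 was at 0.530 to 4.10 TPM over all libraries. MSLN was at 0.386 and 1.85 TPM in daughter cells of Hey and SKOV3, against 21.5 to 46.1 TPM elsewhere. Among leukocyte and myeloid markers, PTPRC did not exceed 0.425 TPM, CD3E was listed at 0 throughout, and CD14 and LYZ did not exceed 0.25 and 0.325 TPM. The 5 leukocyte markers summed to between 1.17 and 29.2 TPM, of which NCAM1 made up most in Hey, and the 6 myeloid markers to between 1.69 and 71.1 TPM, most of it CD68 in 5 libraries and 0.840 TPM of CD68 in SKOV3 daughter cells. The 6 fibroblast markers summed to 0.209, 3.25 and 0.121 TPM in the parental, PGCC and daughter libraries of Hey, with 4, 0 and 3 of them listed at 0, and to 12.9, 12.0 and 27.3 TPM in those of SKOV3. The 3 endothelial markers summed to 33.4 to 48.8 TPM in Hey, nearly all CDH5, and to at most 2.88 TPM in SKOV3. The Hey PGCC library also listed the most genes above 0, at 25370 against 19920 in parental and 20154 in daughter cells of Hey and 22041 to 23893 in SKOV3. The share of TPM from mitochondrial genes was 2.64%, 12.3% and 7.60% in the parental, PGCC and daughter libraries of Hey. It was 9.17%, 7.37% and 14.8% in those of SKOV3. The part of the fibroblast markers and of the number of genes listed in the differences that follow was not tested, and mitochondrial genes were left out as an alternative.

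Sequence before the transcription start was at hand for 5 of the 10 genes, namely CSF2, IL23A, IL24, IL32 and CCL3, from RefSeq on GRCh38.p14. The 130 bases shown for each are those in which matches to cytokine promoter motifs lie, or where none was found. Capitals mark matches to the κB consensus (NF-κB), to TGANTCA (AP-1) or to the CK-1 consensus, an element conserved among promoters of haematopoietic cytokines. Both strands were searched over the 250 bases before the outermost RefSeq start. CSF2 on chr5:132073659-132073788, plus strand, ended at the base before the start and held a CK-1 match at positions -101 to -92, counted back from -1, the base before the start. IL23A on chr12:56338754-56338883, plus strand, held a κB match that could be read on either strand, at -95 to -86, and a TGANTCA match at -77 to -71. This RefSeq start lies inside the IL23A span of GENCODE release 44, which begins at 56334174, and the stretch overlaps no annotated exon of IL23A. IL32 on chr16:3065197-3065326, plus strand, held a pair of overlapping κB matches, 1 on each strand. They lie at -99 to -90 and -98 to -89 from the RefSeq start. The last 30 bases shown lie in a first exon of GENCODE release 44. Both κB matches fall within those 30 bases, and so inside that annotated exon. IL24 on chr1:206897313-206897442, plus strand, and CCL3 on chr17:36090144-36090273, minus strand, held no match in their windows, and 26 bases of the CCL3 stretch lie in an exon of a GENCODE transcript.
CSF2: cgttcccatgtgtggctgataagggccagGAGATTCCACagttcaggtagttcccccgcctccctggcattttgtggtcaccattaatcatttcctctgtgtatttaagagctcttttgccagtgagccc
IL23A: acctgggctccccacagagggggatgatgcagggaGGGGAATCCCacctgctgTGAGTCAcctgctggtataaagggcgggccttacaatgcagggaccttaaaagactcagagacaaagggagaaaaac
IL32: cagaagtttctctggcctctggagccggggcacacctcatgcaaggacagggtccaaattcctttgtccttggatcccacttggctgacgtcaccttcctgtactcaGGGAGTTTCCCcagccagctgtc
IL24: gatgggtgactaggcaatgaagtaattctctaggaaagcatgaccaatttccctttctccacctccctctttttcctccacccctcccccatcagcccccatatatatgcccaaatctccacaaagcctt
CCL3: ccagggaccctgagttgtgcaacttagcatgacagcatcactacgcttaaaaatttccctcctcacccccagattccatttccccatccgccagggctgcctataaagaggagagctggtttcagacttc

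Among 27305 genes with such a 250-base window, the κB consensus was found in 9.58%, TGANTCA in 6.57% and the CK-1 consensus in 0.601%. Of the 5 genes here 2, 1 and 1 held a match. A match gives the presence of the letters only.

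For 3 of the genes the study designed RT-qPCR primers, shown here because their sites tell which transcripts such an assay reads.
CSF2 sense: tgcagcatctctgcacccgc
CSF2 antisense: aggcaggtcggctcctggag
CCL5 sense: tacattgcccgcccactgcc
CCL5 antisense: gggttggcacacacttggcg
CCL3 sense: ttcagaaggacacgggcagcagaca
CCL3 antisense: ggaatctgccgggaggtgtagct
Each primer was placed on GENCODE release 44 transcripts by exact match, and none matched a transcript of another gene. The CSF2 primers lie in coding exon 1 and across the junction of coding exons 2 and 3 and span 176 bases. The CCL5 primers lie in coding sequence of 3 transcripts and span 119 or 201 bases. Both CCL3 primers matched only ENST00000614051.1, a transcript with a retained intron, over 904 bases. On the canonical CCL3 transcript, ENST00000613922.2, the antisense site lies in coding exon 2 while the sense primer begins 3 bases before the annotated first base. No RT-qPCR value was used here.

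CSF2, CSF3, IL32, IL24, CCL3 and CSF1 were higher in Hey PGCCs than in Hey parental cells, with CSF2 and CSF3 among the largest changes of the line. None of the 6 was called higher in SKOV3 PGCCs, and CSF3 and CCL3 were listed at 0 in all 3 SKOV3 libraries. The sum of the 10 genes was 26.7, 344 and 50.4 TPM in Hey parental cells, PGCCs and daughter cells, and 103, 122 and 260.4 TPM in the same order in SKOV3. The highest sum thus lay in the PGCC library of Hey and in the daughter library of SKOV3. IL32 alone made up 200.5 TPM of the SKOV3 daughter sum.

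**Figure D1:**
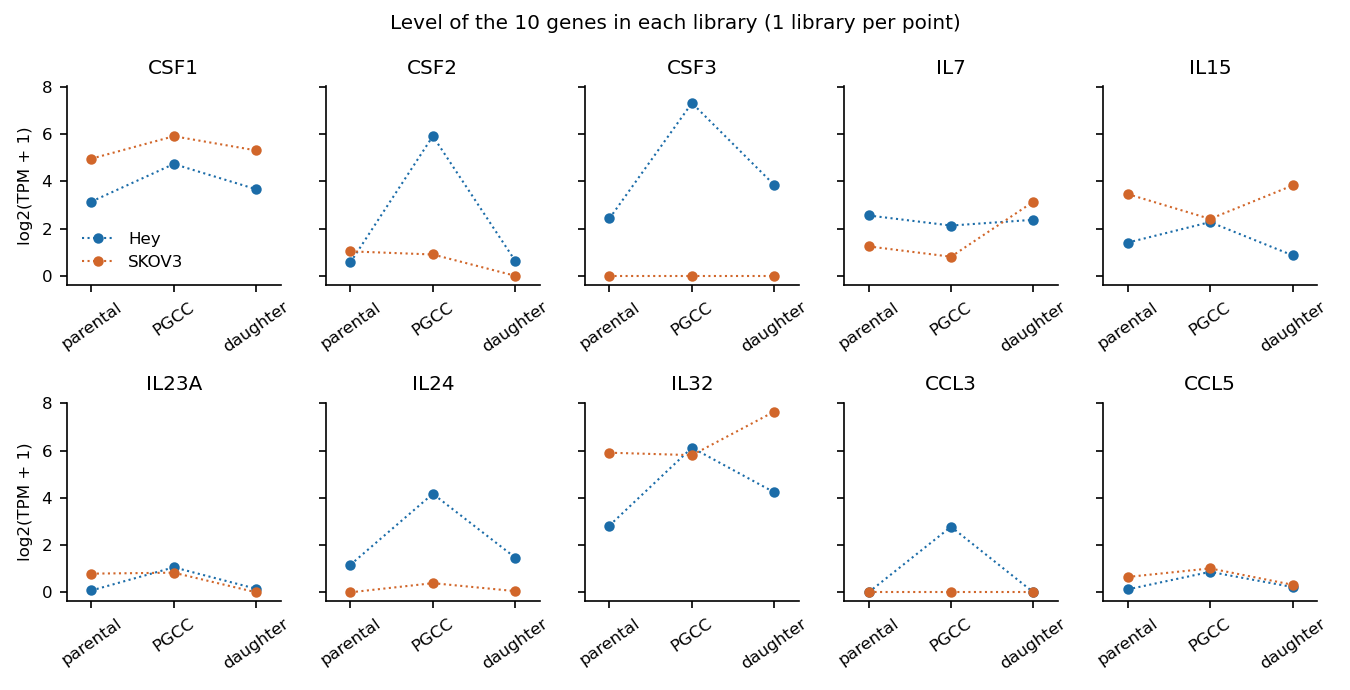
Level of each of the 10 genes as log2(TPM + 1), with 1 panel per gene, the 3 conditions on the horizontal axis and 1 point per library. Blue is Hey, orange is SKOV3, and dotted lines join libraries of a line only to guide the eye. CSF2, CSF3, IL24 and CCL3 peak in Hey PGCCs, while in SKOV3 CSF2 does not exceed 1.05 TPM, IL24 0.309 TPM, and CSF3 and CCL3 are at 0. IL32 and IL7 are highest in SKOV3 daughter cells.

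CSF2 (chr5:132073789-132076170, plus strand, 4 exons, GRCh38) encodes GM-CSF. It was at 0.481 TPM in Hey parental cells, 59.4 TPM in Hey PGCCs and 0.548 TPM in Hey daughter cells. In SKOV3 it was at 1.05, 0.870 and 0 TPM in the same order. Only the Hey PGCC library stood above about 1 TPM. The difference between PGCCs and parental cells of Hey was 5.35 on the log2(TPM + 1) scale, a 123-fold difference in TPM and rank 10 from the highest of 18214 genes. Against daughter cells it was 5.29, a 108-fold difference and rank 15. Both folds are ratios over levels below 1 TPM, 0.481 and 0.548 TPM, so their size is uncertain. Daughter and parental cells of Hey differed by 0.06. In SKOV3, PGCCs and parental cells differed by -0.13, and daughter cells were lower than parental cells by a log2 difference of -1.04, a call that rested on a parental level of 1.05 TPM. CSF2 is the member whose promoter stretch above carries the CK-1 match, and the part of that match in these levels was not tested.

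CSF3 (chr17:40015361-40017813, plus strand, 5 exons) encodes G-CSF. Its level was 4.39 TPM in Hey parental cells, 158 TPM in Hey PGCCs and 13.3 TPM in Hey daughter cells, and it was listed at 0 in all 3 SKOV3 libraries. In Hey PGCCs it was the highest of the 10 genes per length and ranked 746 among the genes detected in that library. The difference between PGCCs and parental cells of Hey was 4.89 (36.1-fold, rank 23), and that between PGCCs and daughter cells was 3.47 (11.9-fold). Hey daughter cells remained above parental cells by 1.41 (3.04-fold). CSF3 and IL32 were the only members of the 10 called higher in both Hey PGCCs and Hey daughter cells against the same parental library.

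CSF1 (chr1:109910242-109930992, plus strand, 9 exons) encodes M-CSF. It was at 7.83, 25.6 and 11.7 TPM in Hey parental cells, PGCCs and daughter cells, and at 30.1, 59.1 and 38.6 TPM in SKOV3. In each line the PGCC library was the highest and the parental library the lowest, and every SKOV3 value lay above every Hey value. The log2 difference between PGCCs and parental cells was 1.59 in Hey (3.27-fold, rank 527) and 0.95 in SKOV3 (1.96-fold), the latter just short of a call. PGCCs were higher than daughter cells by 1.07 in Hey, just inside the threshold, and by 0.60 in SKOV3. With the GC content and length trend over all genes removed, the SKOV3 difference between PGCCs and parental cells was 0.30.

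IL15 (chr4:141636583-141733987, plus strand, 8 exons) supports natural killer cells and memory T cells, usually presented in trans on IL15RA. It was at 1.65, 3.84 and 0.825 TPM in Hey parental cells, PGCCs and daughter cells. In SKOV3 it was at 10.0, 4.31 and 13.2 TPM. The PGCC library was thus the highest of Hey and the lowest of SKOV3, and the PGCC levels of the lines differed by only -0.13 on the log2(TPM + 1) scale (Hey minus SKOV3). PGCCs against daughter cells gave 1.41 in Hey (4.65-fold) and -1.42 in SKOV3, where daughter cells were 3.05-fold higher. PGCCs against parental cells gave 0.87 in Hey, which was not called, and -1.05 in SKOV3, which was called lower. In TPM the PGCC level was 2.33-fold higher in Hey, and the parental level was 2.33-fold higher in SKOV3. The ratios were thus alike in size, and the calls differ through the 1 TPM added to unlike levels. With a pseudocount of 0.1 the Hey difference was 1.17 and was called.

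The IL15 transcript has a GC content of 38.6%, and SKOV3 differences moved with GC content across all genes. Over 15388 genes with a known GC content, Spearman's rho between GC content and the difference of PGCCs and parental cells was 0.684 in SKOV3 and -0.039 in Hey. This is a correlation across genes, which are not independent replicates. In SKOV3 the median difference was -0.51 for genes under 40% GC and 0.87 for genes at 60% or more. For PGCCs and daughter cells of SKOV3 rho was 0.409. The trend on GC content and length was then removed from each comparison on its own. IL15 in SKOV3 PGCCs then differed by -0.53 from parental cells and by -0.93 from daughter cells, and neither was called.

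**Figure D2:**
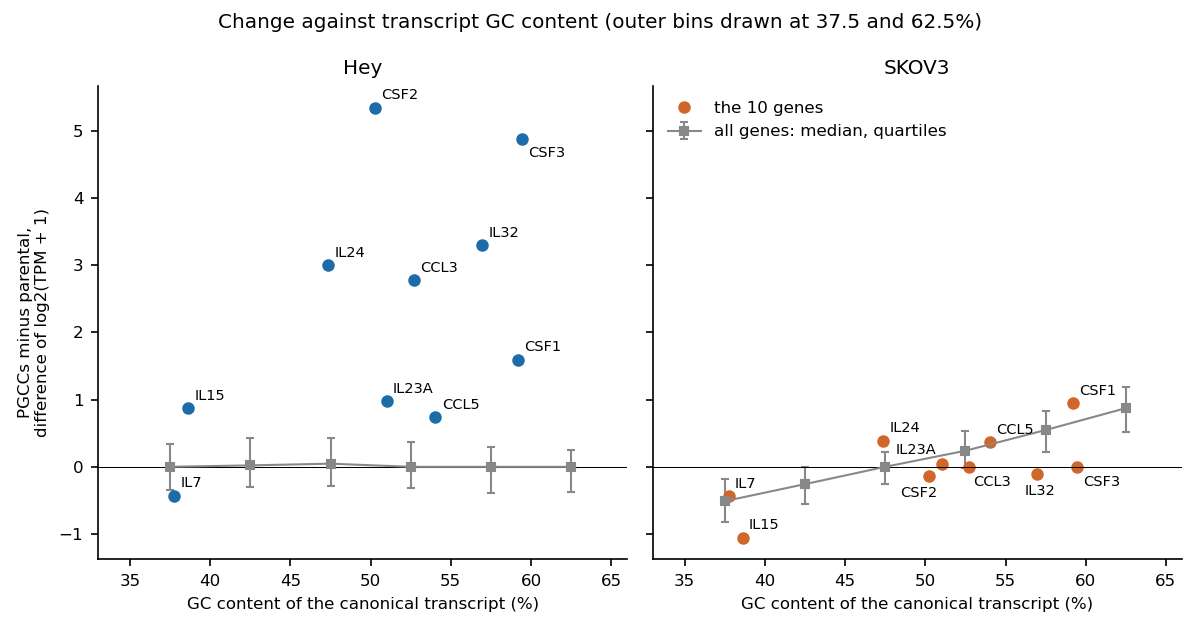
Difference of log2(TPM + 1) between PGCCs and parental cells (vertical axis) against the GC content of the canonical transcript in percent (horizontal axis), Hey left and SKOV3 right. Coloured points are the 10 genes, grey squares the median of all genes in a GC bin and grey bars their quartiles. The grey medians stay at 0.00 to 0.05 in Hey and run from -0.51 to 0.87 in SKOV3, where IL7 and CSF1 lie within or near the quartiles of their bins.

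IL7 (chromosome 8, 78675743 to 78805523, minus strand, 6 exons) maintains lymphocytes and is normally made by stromal and epithelial cells. Its level was 4.88, 3.37 and 4.18 TPM in Hey parental cells, PGCCs and daughter cells, and 1.37, 0.751 and 7.81 TPM in SKOV3. The Hey libraries differed little, whereas the SKOV3 daughter library was the highest of all 6. Daughter cells of SKOV3 were 1.89 above parental cells on the log2 scale (5.69-fold). PGCCs differed from daughter cells of SKOV3 by -2.33, daughter cells being 10.4-fold higher in TPM, a ratio over 0.751 TPM. PGCCs and parental cells differed by -0.43 in Hey and by -0.44 in SKOV3. IL7 was thus the only member lower in PGCCs than in parental cells of both lines, neither difference being called. In SKOV3 the value became 0.12 once the trend on GC content and length was taken out.

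IL32 (chr16:3065297-3082192, plus strand, 7 exons) can be induced by TNF and NF-κB signals. It was at 6.10, 68.8 and 17.8 TPM in Hey parental cells, PGCCs and daughter cells, and at 59.2, 55.03 and 200.5 TPM in SKOV3. The order of the 3 conditions differed between the lines, with PGCCs highest in Hey and daughter cells highest in SKOV3. In Hey, PGCCs were 3.30 above parental cells (11.3-fold, rank 87) and 1.90 above daughter cells (3.87-fold). Hey daughter cells were 1.40 above parental cells (2.91-fold). In SKOV3, PGCCs and parental cells differed by -0.10, daughter cells were 1.74 above parental cells (3.39-fold), and PGCCs differed from daughter cells by -1.85, a 3.64-fold higher level in daughter cells. Parental SKOV3 cells held 9.70 times the IL32 TPM of parental Hey cells, while the PGCCs of the lines differed by 0.32 on the log2 scale.

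IL24 (chr1:206897443-206904139, plus strand, 7 exons), also known as MDA-7, signals through receptors of the IL-20 family. Its level was 1.24 TPM in Hey parental cells, 17.0 TPM in Hey PGCCs and 1.77 TPM in Hey daughter cells. In SKOV3 it was at 0, 0.309 and 0.0357 TPM. The Hey PGCC library stood apart from the other 5. PGCCs of Hey were 3.01 above parental cells (13.7-fold, rank 112) and 2.70 above daughter cells (9.63-fold), while Hey daughter and parental cells differed by 0.30. The SKOV3 difference between PGCCs and parental cells was 0.39 and was not called. Over the 6 libraries IL24 followed CSF3 more closely than any other member, with a Pearson r of 0.977 as a description of 6 points.

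IL23A (chr12:56334174-56340410, plus strand, 4 exons) pairs with the p40 subunit encoded by IL12B, which was listed at 0 in 5 libraries and at 0.02 TPM in Hey PGCCs. IL23A was at 0.0550, 1.08 and 0.108 TPM in Hey parental cells, PGCCs and daughter cells, and at 0.730, 0.779 and 0 TPM in SKOV3. Every value was near or below 1 TPM. PGCCs and parental cells of Hey differed by 0.98, the value nearest to the threshold among those not called, and this passed 1 under 3 of the alternatives tried (1.04 against parental cells with median-ratio scaling, 1.08 without mitochondrial genes and 2.93 with a pseudocount of 0.1).

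CCL3 (chr17:36088256-36090169, minus strand, 3 exons), also called MIP-1α, was listed at 0 in 5 of the 6 libraries and at 5.85 TPM in Hey PGCCs. The difference of 2.78 on the log2(TPM + 1) scale, at rank 135 against parental cells, carries no fold because the comparison libraries are at 0. Its near-identical copy CCL3L3 was listed at 0 in all libraries, and reads of such copies may be shared between them, so the assignment to CCL3 is uncertain.

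CCL5 (chr17:35871491-35880793, minus strand, 4 exons), also called RANTES, was at 0.0894, 0.823 and 0.167 TPM in Hey parental cells, PGCCs and daughter cells and at 0.569, 1.02 and 0.248 TPM in SKOV3. The PGCC library was the highest of each line at these low levels. None of its differences was called, the PGCC minus parental values being 0.74 in Hey and 0.36 in SKOV3.

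**Figure D3:**
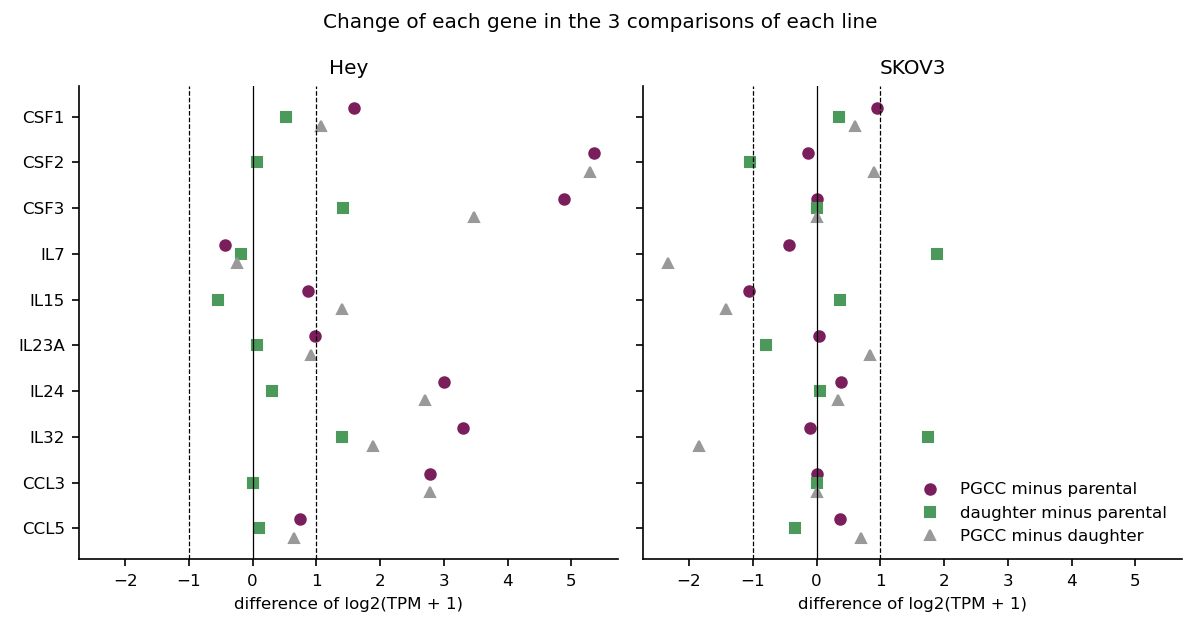
Difference of log2(TPM + 1) (horizontal axis) for each of the 10 genes (rows) in Hey (left) and SKOV3 (right). Circles are PGCCs minus parental cells, squares daughter minus parental cells and triangles PGCCs minus daughter cells, and dashed lines mark the 2-fold threshold at -1 and 1. Hey circles reach 5.35 for CSF2, and in SKOV3 the points past the threshold are those of CSF2, IL7, IL15 and IL32.

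In Hey, 6 of the 10 genes were called higher and 0 lower in PGCCs than in parental cells, where 8.35% of all 18214 genes were called higher and 4.55% lower. Between daughter and parental cells of Hey 2 were higher and 0 lower, against 6.39% and 3.49% of all genes. Between PGCCs and daughter cells of Hey 7 were higher and 0 lower, against 8.58% and 8.94%. The 7 comprised the 6 that were also higher than in parental cells, and IL15. The median difference of the 10 genes was 2.18 between PGCCs and parental cells, 0.09 between daughter and parental cells and 1.65 between PGCCs and daughter cells, and that of all genes was 0.03, 0.02 and 0.

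In SKOV3, 0 of the 10 genes were called higher in PGCCs than in parental cells and 1, IL15, was called lower, where 9.33% of all genes were called higher and 4.92% lower. Between daughter and parental cells 2 genes, IL7 and IL32, were higher and 1, CSF2, was lower, against 16.5% and 6.34% of all genes. Between PGCCs and daughter cells 0 were higher and 3, IL7, IL15 and IL32, were lower, against 9.03% and 15.6%. The SKOV3 medians of the 10 genes were 0, 0.03 and 0.17, and those of all genes 0.01, 0.16 and -0.12. The 3 comparisons of a line share libraries and are not independent of each other. Because the genes were chosen with these values known, the counts describe the 10 genes and nothing is read from their distance to the shares of all genes. The differences between the lines were not tested.

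The shares of all genes called depended on the scaling of the libraries. Without mitochondrial genes 10.4% were higher and 3.50% lower in Hey PGCCs than in parental cells. With quantile normalization 5.22% were higher and 4.63% lower between daughter and parental cells of Hey, 10.4% and 9.10% between those of SKOV3, and 11.6% and 11.2% between PGCCs and daughter cells of SKOV3. Median-ratio scaling gave 12.2% and 7.93% between daughter and parental cells of SKOV3. Under these scalings the members kept the counts given above, except that CSF2 in SKOV3 daughter cells came to -0.98 with median-ratio scaling and to -0.996 with quantile normalization and was then not called. IL23A was called in addition in Hey PGCCs, against parental cells with median-ratio scaling and against parental and daughter cells (1.001) without mitochondrial genes.

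**Figure D4:**
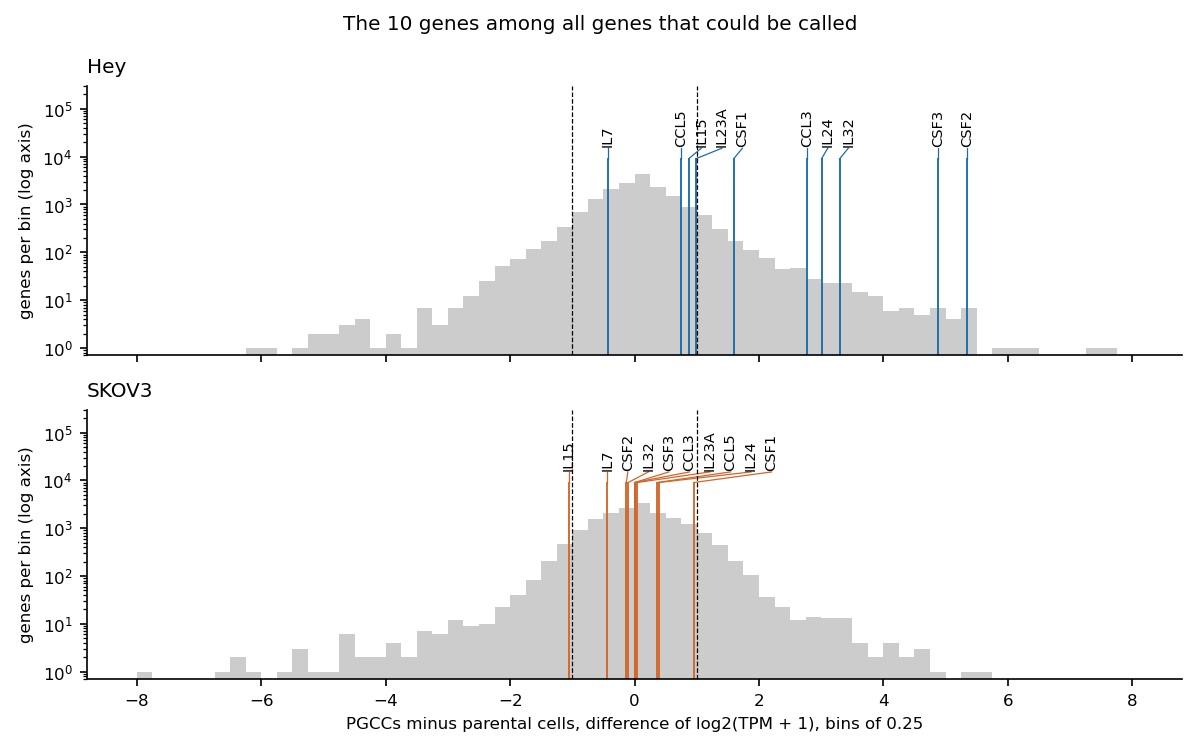
Number of genes per bin of 0.25 (vertical log axis) by the difference of log2(TPM + 1) between PGCCs and parental cells (horizontal axis), Hey above and SKOV3 below, over all 18214 genes that could be called. Coloured lines mark the 10 genes and dashed lines the 2-fold threshold. CSF2 and CSF3 lie at 5.35 and 4.89 at the upper end in Hey, and the SKOV3 lines run from -1.05 for IL15 to 0.95 for CSF1.

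All receptor chains of these ligands were examined in the same libraries, 17 in all, of which 6 reached 1 TPM in any library. CSF3R, the receptor of G-CSF, was listed at 0 throughout. In Hey PGCCs against parental cells 3 chains were called higher and 0 lower, beside 8.35% and 4.55% of all genes. CSF2RA, the ligand-binding chain for GM-CSF, was at 0.373, 2.73 and 0.0493 TPM in Hey parental cells, PGCCs and daughter cells and at 2.42, 0.112 and 21.9 TPM in SKOV3. It thus moved up with CSF2 in Hey PGCCs, and in SKOV3 it was highest in the daughter library, where CSF2 was listed at 0. CSF2RB, the signalling chain that GM-CSF also needs, did not exceed 0.0108 TPM. CSF1R did not exceed 0.494 TPM in any library, CCR1 0.137 TPM, CCR3 0.150 TPM and the scavenging receptor ACKR2 0.208 TPM.

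IL7R was at 3.92, 36.9 and 18.0 TPM in Hey parental cells, PGCCs and daughter cells and at or below 0.102 TPM in SKOV3. It was 2.94 higher in PGCCs than in parental cells of Hey on the log2 scale, while IL7 itself was not called. The common gamma chain IL2RG did not exceed 0.625 TPM. IL15RA lay between 10.6 and 20.4 TPM in all 6 libraries with no call, and IL2RB did not exceed 0.128 TPM. Of the chains for IL24, IL20RB was at 0.829, 4.69 and 1.77 TPM in Hey and at 10.1, 14.7 and 0 TPM in SKOV3, and it was called higher in Hey PGCCs than in parental cells by 1.64. IL22RA1 reached 3.48 TPM in SKOV3 daughter cells and IL20RA 0.741 TPM. For IL23A, IL23R reached 1.11 TPM in SKOV3 daughter cells and IL12RB1 0.392 TPM in Hey PGCCs. In SKOV3 PGCCs against parental cells 0 chains were higher and 1, CSF2RA, was lower, beside 9.33% and 4.92% of all genes.

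**Figure D5:**
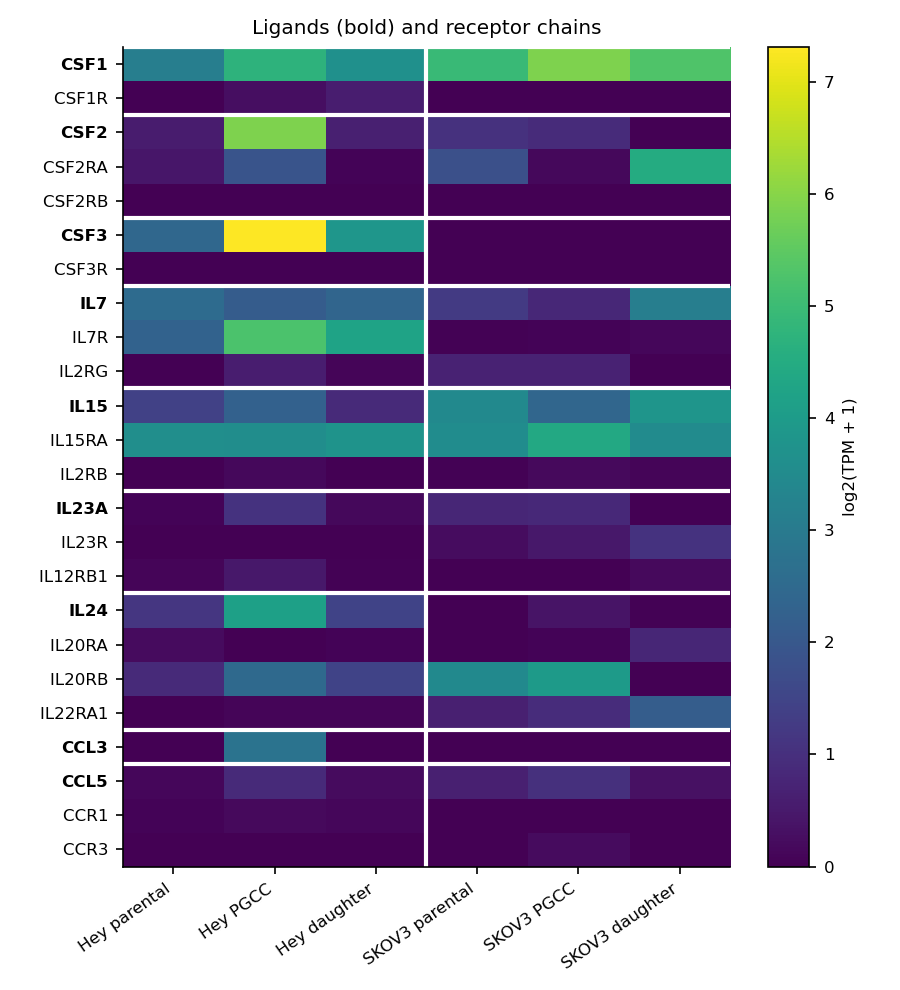
Level as log2(TPM + 1), shown by colour from 0 (dark) to above 7 (bright), of 9 of the ligands (bold) with receptor chains in rows and the 6 libraries in columns. CCL3 and CCL5 share CCR1, and IL32 is not drawn. The bright ligand cells of Hey PGCCs, CSF3 at 158 TPM and CSF2 at 59.4 TPM, stand beside receptor rows at or near 0 for CSF3R and CSF2RB.

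Of 24 related ligands and partner subunits, 23 were in the table, 7 were listed at 0 in all libraries and 6 could be called. In Hey PGCCs against parental cells 4 of the 6 were higher and 0 lower, beside 8.35% and 4.55% of all genes. IL11, a gp130 cytokine, was at 0.86, 6.93 and 0.83 TPM in Hey parental cells, PGCCs and daughter cells. EBI3, a subunit of interleukin-27 and interleukin-35, was at 0.33, 4.22 and 0.33 TPM, and LIF at 5.85, 24.3 and 9.36 TPM. IL12A, the p35 partner of IL12B and EBI3, was at 4.52, 14.4 and 1.51 TPM. All 4 had the order of CSF2, CSF3 and IL24 in Hey in that PGCCs were highest. In SKOV3 PGCCs against parental cells 0 of the 6 were called in either direction, beside 9.33% of all genes higher and 4.92% lower. IL3 and IL5, the relatives of CSF2 in the 5q31 cytokine cluster, were listed at 0 in all libraries and at or below 0.67 TPM, respectively.

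The signalling and control genes around these cytokines were counted in the same way, beside shares of all genes of 8.35% higher and 4.55% lower in Hey PGCCs and 9.33% higher and 4.92% lower in SKOV3 PGCCs. Of 15 JAK kinases, STAT factors and SOCS inhibitors, 1 was higher and 1 lower in Hey PGCCs than in parental cells, STAT4 at 0.15 and 1.75 TPM and the inhibitor SOCS2 at 48.3 and 22.5 TPM. STAT4 reached 1 TPM in Hey PGCCs alone, and so could be called only through that library. In SKOV3 1 was higher, STAT6 at 44.8 TPM in parental cells and 105 TPM in PGCCs, and 0 were lower. Of 17 transcription factors known to act on cytokine promoters, 1 was higher and 1 lower in Hey PGCCs, CEBPD at 1.39 and 4.32 TPM and FOS at 52.52 and 11.1 TPM. In SKOV3 PGCCs 3 were higher and 0 lower, among them NFKB2 at 8.55 and 25.5 TPM, FOS at 65.4 and 141 TPM and JUNB at 29.4 and 68.9 TPM. With the GC and length trend taken out, as was done for IL15, these came to 0.72 for NFKB2, 0.88 for FOS and 0.36 for JUNB, STAT6 came to 0.76, and none of the 4 was called. JUND and CEBPD were then called lower in SKOV3 PGCCs. Of 9 regulators of AU-rich message decay, 1 was higher in Hey PGCCs, the endonuclease gene ZC3H12A at 6.18 and 15.6 TPM, and 0 were called in SKOV3 PGCCs.

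The nearest protein-coding genes on each side of the members were examined, leaving out any gene that overlaps the member. Those of CSF2, CSF3, IL24, IL32 and CCL3 are given for the PGCC difference in Hey. IL3, 10.6 kb before CSF2, was listed at 0 in all 6 libraries, while P4HA2, 114 kb after it, was at 8.73 TPM in Hey parental cells and 25.9 TPM in PGCCs, a difference of 1.47. The neighbours of CSF3, PSMD3 and MED24, differed by -0.03 and -0.34 between PGCCs and parental cells of Hey. The neighbours of IL24, IL20 and PIGR, stayed below 1 TPM in every library, and the difference in Hey was 0.08 and 0.60. MMP25 and ZSCAN10, which flank IL32, reached 0.132 and 0 TPM at most. Next to CCL3, CCL4 was at 0.359 TPM in Hey PGCCs and listed at 0 in the other 5 libraries, and CCL18 at 0.111 TPM and 0. Of these neighbours, P4HA2, PSMD3 and MED24 reached 1 TPM and could be called. Only P4HA2 was called, beside 8.35% of all genes called higher.

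Genes with the most similar pattern were ranked by Pearson's r of log2(TPM + 1) over the 6 libraries among 13063 genes that reached 5 TPM. The points are 6 libraries of 2 lines, and each of the 8 members compared had between 30 and 119 genes at an r of at least 0.95, so the names are a description. Nearest to CSF2 were IL1RL1 (r = 0.994), the receptor of IL-33, then AL662797.1 (0.990) and IL11 (0.989). IL1RL1 was at 0.0656 TPM in Hey parental cells and 11.9 TPM in Hey PGCCs. Nearest to CSF3 were LINC00622 (0.999), TNIP3 (0.994), an inhibitor of NF-κB signalling at 1.14, 10.9 and 3.71 TPM in Hey parental cells, PGCCs and daughter cells, and PPP1R3C (0.990). IL24 had PPP1R3C (0.994), AL138963.3 (0.982) and LAPTM5 (0.982). CCL3 was matched by AC006064.4, AC125257.2 and AC215524.1, each listed above 0 in Hey PGCCs alone and so at an r of 1.

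CSF1 was followed by ZNF236 (0.994), ZNF264 (0.993) and ELOA (0.993), all 3 lowest in Hey parental cells and highest in SKOV3 PGCCs as CSF1 was. IL7 was followed by DMD (0.989), MYO6 (0.981) and DTD2 (0.978), IL15 by C6orf62 (0.995), SEC22B4P (0.995) and HINT1 (0.993), and IL32 by AMZ2P1 (0.999), AC026273.1 (0.996) and AL050341.2 (0.988). Among the members themselves, CSF2 and CCL3 had an r of 0.987, CSF3 and IL24 of 0.977, and IL7 and CCL5 of -0.763.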

How the data were processed

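RNA-seq was done on 6 libraries, 1 for each of 3 conditions of the Hey and SKOV3 lines. Salmon 0.14.1 was run by the authors against human transcripts (hg38). The submitters' processing notes also name fastp. The deposited values are TPM, 1 per gene symbol and library. How transcripts were joined into symbols is not given in the sources used here. The columns summed to 911825 to 920497 TPM and held 19920 to 25370 genes above 0, the least in Hey parental cells and the most in Hey PGCCs. TPM carries no counts, so no counting error can be given and no count test was run. All sample columns were used.

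Differences of log2(TPM + 1) were computed from the deposited values within each line, and a gene was called at a 2-fold difference among genes with at least 1 TPM in any library. With 1 library per condition of a line there is no p-value. The members, the gene lists and the tests were chosen with earlier results of these data known. All members are named, with receptor chains and list genes called in PGCCs against parental cells (up to 4 per list). The 3 genes most similar to each member above 5 TPM are also named. The nearest protein-coding neighbours that do not overlap the member are named for CSF2, CSF3, IL24, IL32 and CCL3 only. Another receptor chain of the list is not reported here. Positions, GC content and primer sites are from GENCODE release 44 (GRCh38), joined by symbol, with a GC content for 84.5% of genes, and upstream sequences from RefSeq (GRCh38.p14). The 9 alternatives were a pseudocount of 0.1, a filter on a mean TPM of 1, no filter, median-ratio scaling, quantile normalization, TPM without mitochondrial genes, calls at 1.5-fold or 3-fold, and lowess removal of the GC and length trend. The calling step was run on simulated data whose changed genes lay at 5 TPM or more and were set well past the threshold. This checks that the step works as written. It says nothing on calls near 1 TPM or near the threshold. Software was matplotlib 3.10.9, statsmodels 0.14.6, scipy 1.17.1, pandas 2.3.3 and numpy 2.4.6 under Python 3.11.15.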

Additional observations from a re-analysis of the deposited data

Results flagged for a closer look

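IL15 and IL32 stood out because PGCCs and daughter cells differed by more than 2-fold in opposite directions in the lines. For IL15 the log2 difference was 1.41 in Hey and -1.42 in SKOV3, so that Hey minus SKOV3 came to 2.82. For IL32 it was 1.90 in Hey and -1.85 in SKOV3, and Hey minus SKOV3 came to 3.74. Neither contrast of Hey and SKOV3 was tested, since each condition of a line has 1 library. With the GC content and length trend removed, the SKOV3 difference of IL15 was -0.93, short of the threshold.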

How the results depend on the processing

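No paired analysis was possible because each comparison is made within a line, with 1 library on each side, and for the same reason no replicate could be left out. A fit that takes the lines as repeats of each condition was not run. No result changed direction past the threshold. With a pseudocount of 0.1, and likewise at 1.5-fold, 1 member was called higher in SKOV3 PGCCs than parental cells. There, 2 were lower in SKOV3 daughter than parental cells and 4 were higher in SKOV3 PGCCs than daughter cells. In the same order, 15.9%, 9.76% and 13.2% of all genes were called with the pseudocount. At 1.5-fold the shares were 21.6%, 13.3% and 18.0%. Median-ratio scaling and quantile normalization each left 0 members lower in SKOV3 daughter cells, beside 7.93% and 9.10% of all genes. CSF2 came to -0.98 and -0.996 under these scalings. At 3-fold, 0 members were higher in Hey daughter cells, beside 2.10% of all genes. In SKOV3, 0 were then lower in PGCCs than parental cells and 0 in daughter cells, beside 0.999% and 2.67%. With the GC and length trend removed 0 members were lower in SKOV3 PGCCs than parental cells, beside 2.69% of genes. Members higher in Hey PGCCs than parental cells went from 6 to 9 with a pseudocount of 0.1 and at 1.5-fold, beside 18.3% and 18.2% of all genes. Those higher than in Hey daughter cells went from 7 to 9 under both settings, beside 17.0% and 17.9%. The other counts of the 10 genes moved by no more than 1.5 times. This held also with a filter on a mean TPM of 1, which left out IL23A, CCL3 and CCL5, and without a filter.

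Of 60 single differences (10 genes, 3 comparisons, 2 lines) 58 kept their side of the threshold with the GC trend removed, 58 with median-ratio scaling, 58 without mitochondrial genes, 59 with quantile normalization and 49 with a pseudocount of 0.1, where 11 low-level differences crossed it. Of the 15388 genes with a known GC content, the GC correction took those higher in SKOV3 PGCCs than parental cells from 1437 to 378 and those lower from 678 to 414. Over all genes a pseudocount of 0.1 took the higher calls in Hey PGCCs from 1520 to 3342. Leaving out mitochondrial genes moved the median of all genes to 0.12 in Hey PGCCs and to 0.24 in SKOV3 daughter cells against parental cells. The gene lists were recomputed in PGCCs against parental cells under the same alternatives, which was chosen after seeing the data. In SKOV3 the transcription factors called were 3 higher and 0 lower at first. With the GC and length trend removed they were 0 higher and 2 lower, beside 2.46% and 2.69% of genes, and STAT6 was no longer called. In Hey the related ligands called higher numbered 6 with a pseudocount of 0.1, and the JAK, STAT and SOCS genes 3. Under that setting 18.3% of all genes were called higher. Of the 6 ligands, CCL2 was at 0 and 0.157 TPM in Hey parental cells and PGCCs. Other settings lost list calls in Hey. STAT4 was not called with a filter on a mean TPM of 1. SOCS2 was not called with quantile normalization or without mitochondrial genes, and CEBPD not with quantile normalization. At 3-fold STAT4, SOCS2, CEBPD, ZC3H12A, CSF2RA and IL12A were not called. Without replicates, levels near or below 1 TPM are the least firmly measured. Among them are IL23A, CCL5, CSF2 outside Hey PGCCs, IL7 in SKOV3 PGCCs and IL15 in Hey daughter cells.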

Other observations

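CCL2, the monocyte attractant, was chosen after its values were seen. It was listed at 0 in parental cells and PGCCs of SKOV3 and was at 590.5 TPM in SKOV3 daughter cells, and so above the sum of the 10 genes in any library, while the Hey libraries did not exceed 0.16 TPM. EBI3 was at 0.34, 0.76 and 6.04 TPM in SKOV3 parental cells, PGCCs and daughter cells.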
